A study of Mus musculus with 4 samples.

Results

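The canonical histone genes of the mouse lie in clusters, and the 67 genes described here were all features whose symbol began with Hist1h, Hist2h, Hist3h or Hist4h, of 32285 features in the expression matrix. They comprised 6 linker histone H1 genes, 18 H2A, 18 H2B, 12 H3 and 13 H4 genes. On mouse GRCm38, 54 lay on chromosome 13 (chr13:21715763-23934851), 10 on chromosome 3 (chr3:96219865-96270132), 2 on chromosome 11 (chr11:58948920-58956830) and 1 on chromosome 6 (chr6:136801553-136804415).

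Tibial muscle of Nse-Bmp4 mice on the C57BL/6 strain, 6 to 8 weeks old, was profiled by single-cell RNA sequencing. The transgene places Bmp4, a bone-forming growth factor, under the promoter of neuron specific enolase (Nse), and muscle injury with cardiotoxin leads to heterotopic bone, that is bone inside soft tissue. The 4 libraries, uninjured muscle (Uninjured) and muscle taken 1, 3 or 7 days after the injury (dpi), each pooled 3 muscles, and every animal carried the transgene. With 1 library per time point, a difference between time points cannot be told apart from a difference between libraries.

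Histones package DNA into nucleosomes, built from H2A, H2B, H3 and H4, with H1 binding the DNA between them. Most cluster genes are transcribed mainly while DNA is copied in S phase, and their mRNAs end in a short stem-loop in place of a poly(A) tail. Some members also make polyadenylated mRNAs in resting and differentiated cells, and libraries primed on poly(A) capture mRNAs without a tail only in part.

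The stem-loop pattern was found in an annotated transcript of 46 of the 67 members and of 32 of 32091 other genes (0.0997%). Members differed in where the annotated transcript stopped. In 23 members it ended within 100 bases after the stem-loop, in 18 it ran over 300 bases past it, in 5 it stopped between these limits, and 21 held no match. Whether the annotation of those 21 stops short of a stem-loop was not tested. The lines below give the transcript around the stem-loop, 5′ to 3′, with its 16 bases in capitals, for 6 members with unlike values in cycling cells.

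Hist1h2ap: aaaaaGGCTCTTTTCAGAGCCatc
Hist1h2ab: acaaaGGCTCTTTTCAGAGCCacc
Hist1h3c: aaaaaGGCTCTTTTAAGAGCCacc
Hist1h1c: caaaaGGCTCTTTTCAGAGCCacc
Hist3h2a: ccaaaGGCTCTTTTCAGAGCCacc
Hist4h4: acaaaGGCCCTTTTCAGGGCCcac

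The transcripts of Hist1h2ap, Hist1h2ab and Hist1h3c stopped 3, 11 and 74 bases after these capitals, and those of Hist1h1c, Hist3h2a and Hist4h4 ran on for 840, 1643 and 2445 bases. In the same order, the capitals lay at chr13:21833029-21833044 on the minus strand, chr13:23751572-23751587 on the plus strand, chr13:23745047-23745062 on the minus strand, chr13:23739512-23739527 on the plus strand, chr11:58955172-58955187 on the plus strand and chr6:136803998-136804013 on the minus strand. The letters of the Hist1h2ap stem-loop were those of 26 members. Hist1h2bc, an H2B gene with many transcripts here, held no match.

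Promoters from RefSeq (GRCm38.p6), 250 bases before to 50 after the start, matched 61 members. CCAAT, read on both strands, was in 52 of them (85.2%) and in 37.4% of all 32817 promoters. It was in all 5 H1, 18 H2A, 16 H2B and 10 H3 promoters and in 3 of 12 H4 promoters. TATAA was in 48 (78.7%, against 24.9% of all promoters). The octamer ATTTGCAT was in 13 (21.3%, against 1.74%), of which 7 were H2A and 6 H2B. Hist1h1d, Hist1h2bc, Hist2h2be, Hist1h3a, Hist1h3f and Hist2h4 were not matched. The promoters of 2 H2A genes with opposite behaviour in cycling cells are shown, Hist1h2ap (chr13:21833426-21833725, minus strand) and Hist3h2a (chr11:58954435-58954734, plus strand), with the 3 motifs on either strand in capitals.

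Hist1h2ap: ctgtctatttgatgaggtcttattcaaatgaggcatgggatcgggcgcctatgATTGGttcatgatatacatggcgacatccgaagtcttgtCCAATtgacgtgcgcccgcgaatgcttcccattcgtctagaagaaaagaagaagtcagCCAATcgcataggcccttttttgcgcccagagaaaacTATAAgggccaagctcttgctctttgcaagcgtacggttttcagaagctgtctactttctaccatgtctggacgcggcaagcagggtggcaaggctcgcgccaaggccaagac
Hist3h2a: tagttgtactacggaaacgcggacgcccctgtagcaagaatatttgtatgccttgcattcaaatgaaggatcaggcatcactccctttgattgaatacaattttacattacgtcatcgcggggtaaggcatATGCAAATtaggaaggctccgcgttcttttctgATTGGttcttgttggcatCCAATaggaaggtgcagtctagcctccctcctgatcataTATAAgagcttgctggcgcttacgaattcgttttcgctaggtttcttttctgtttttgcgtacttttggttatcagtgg

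Both held CCAAT and TATAA, and of the pair the Hist3h2a window alone held the octamer. In 12 places an H2A and an H2B gene lay head to head with 175 to 305 bases between their starts, among them Hist1h2ac and Hist1h2bc. The promoter windows of such a pair overlap. Where both genes were matched, a motif between the starts could thus count for both, and the promoter counts are not of separate stretches of DNA.

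Unique molecular identifiers (UMIs) count captured transcripts. After filtering, 52850 of 62665 cells were kept, with a median of 8639.5, 5896, 4338 and 3049 UMIs in Uninjured, 1, 3 and 7 dpi, and 46723 fell into 1 of 15 classes by marker genes. Of 45 further markers outside the gates, 39 were highest in the class they mark, and pairs of libraries shared 30 to 95 cell barcodes. Mesenchymal cells were the largest class, with 8370, 3598, 6064 and 9216 cells. A cell was called cycling when it held at least 1 UMI each of Mki67, a marker of proliferating cells, and Top2a, which untangles DNA, and non-cycling when it held neither.

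The members had 257468 UMIs in kept cells, of which H2A took 38.6%, H1 27.3%, H2B 18.5%, H4 8.82% and H3 6.75%. Hist1h2ap (H2A) led with 53590 UMIs, followed by Hist1h2bc (H2B) with 35843, Hist1h1c (H1) with 22867, Hist1h2ae (H2A) with 21568, Hist1h1e (H1) with 20970 and Hist1h1b (H1) with 20386. These 6 held 68.1% of member UMIs, and the 28 members with at least 1000 UMIs held 94.7%. The other 39 had 0 to 942 UMIs. Hist1h2aa and Hist1h2ba, known from testis, and Hist1h2bq had 0 UMIs.

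For 27 members, over 50% of the 90-base windows in the last 400 bases of the transcript occurred in another member too. That share was 100% for Hist1h2ap, Hist2h2aa1, Hist2h2aa2, Hist1h2bq and Hist1h1e, the last of which overlaps Hist1h2be on the same strand. For Hist1h2bq, with 0 UMIs, and Hist2h2aa2, with 3, absence or scarcity cannot be told apart from reads lost to their copies. How reads were split between such copies is uncertain, so their single values are less sure than the sums.

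Cycling mesenchymal cells carried more histone mRNA than non-cycling ones in every library. Summed over members, the level in cycling cells was 6665, 2039, 2142 and 1988 UMIs per 1000000 UMIs of the same cells (CPM) in Uninjured, 1, 3 and 7 dpi, the order used throughout, from 72, 74, 490 and 722 cells. In non-cycling cells it was 223, 161, 197 and 367 CPM, from 8173, 3365, 4997 and 7061 cells. The ratios were 29.9 (29.1 to 30.7), 12.7 (12.1 to 13.3), 10.9 (10.6 to 11.2) and 5.42 (5.29 to 5.56). Intervals here and below are exact 95% intervals that cover counting error only, since UMIs of 1 library are not replicates, and no test between conditions was possible. Cells with UMIs of 1 gate gene alone were at 303, 136, 331 and 735 CPM.

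Cycling cells were deeper, with a median of 16129.5, 19337, 20426 and 6104 UMIs against 9100, 7826, 4911 and 3308. When cells were thinned to 3000 UMIs before the gate was read, an alternative chosen after seeing the data, the ratios were 31.1, 17.2, 10.2 and 5.24, in the same order of size. This left out 236, 303, 1442 and 3906 shallower mesenchymal cells of 8370, 3598, 6064 and 9216. With a cell called cycling on either gate gene they were 13.9, 5.74, 6.84 and 3.41.

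Set against the gate genes, cycling mesenchymal cells held 4.57 (4.34 to 4.82), 3.56 (3.29 to 3.85), 3.08 (3.00 to 3.17) and 2.39 (2.32 to 2.48) histone UMIs per UMI of Mki67 or Top2a. The gate genes together were at 1458, 573, 695 and 830.4 CPM. By the gate, each of these cells held at least 1 UMI of both genes, whatever its depth. That minimum is a larger share of the UMIs of a shallow cell, and cycling cells were shallowest at 7 dpi. The part of depth in these values was not tested. Single cycling cells varied widely. In Uninjured they ran from 0 to 32106 CPM, with an upper quartile of 10404. The upper quartiles at 1, 3 and 7 dpi were 3084, 3343 and 2295 CPM. Medians per cell were closer and ran from lowest in Uninjured to highest at 7 dpi, at 750.5, 892, 1073 and 1110.3 CPM. The high summed level of Uninjured was thus carried by a part of its cycling cells, while its median cell was the lowest.

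Cycling cells made up 0.860% (0.674 to 1.08), 2.06% (1.62 to 2.58), 8.08% (7.41 to 8.80) and 7.83% (7.29 to 8.40) of mesenchymal cells. They held 1.52%, 4.38%, 18.6% and 10.9% of mesenchymal UMIs and 31.5%, 37.0%, 68.9% and 36.1% of the histone UMIs. All these shares were read at unequal depth. With cells thinned to 3000 UMIs before the gate was read, and shallower cells left out, 0.553%, 0.819%, 3.85% and 5.69% were cycling. These were 45, 27, 178 and 302 cells. At that depth the share of cycling cells was thus higher at 7 than at 3 dpi. The part of depth in the shares of UMIs was not tested.

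**Figure D1:**
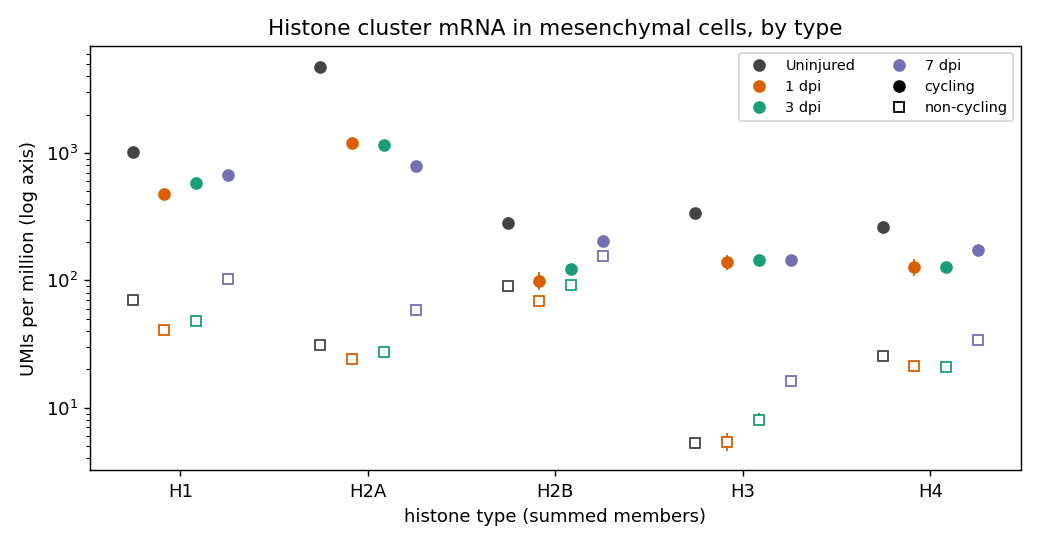
Summed level of the members of each histone type in mesenchymal cells, in CPM on a log axis, for cycling and non-cycling cells of the 4 libraries, with 95% Poisson intervals. Cycling cells lie above non-cycling cells in every type and library, and the gap is widest for H2A and narrowest for H2B.

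By type, the gap was widest for H2A and narrowest for H2B in all 4 libraries. H1 was at 1012, 477, 582 and 676 CPM in cycling cells and 70.4, 40.8, 48.3 and 103 CPM in non-cycling cells. H2A was at 4769, 1196, 1166 and 788 against 31.2, 24.2, 27.6 and 58.7 CPM, so that the ratios were 153, 49.5, 42.3 and 13.4. H2B was at 285, 99.4, 123 and 204 against 90.5, 69.0, 92.4 and 155 CPM, with ratios of only 3.15, 1.44, 1.33 and 1.32. H3 was at 338, 139, 146 and 145 against 5.28, 5.39, 8.04 and 16.3 CPM. H4 was at 261, 127, 127 and 175 against 25.5, 21.3, 20.7 and 34.3 CPM.

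Most single members shared the direction. With at least 20 UMIs in both groups together, 36 of the 67 members could be read in Uninjured and 31 were at least 2-fold higher in cycling cells, where 14.1% of all genes were. The counts were 25 of 32 at 1 dpi (11.4% of all genes), 37 of 44 at 3 dpi (8.2%) and 44 of 50 at 7 dpi (5.07%). A member seen almost only in cycling cells could reach this minimum through those cells alone. At least 2-fold lower were 0 members in Uninjured (8.76% of all genes), 3 at 1 dpi (14.6%), 3 at 3 dpi (14.4%) and 1 at 7 dpi (5.81%), by the ratio itself and with a gene at 0 UMIs in cycling cells read at a floor of 3 UMIs, for members and all genes alike. They were Hist3h2a, Hist1h2bc and Hist4h4 at 1 dpi, Hist4h4, Hist2h3c1 and Hist2h3c2 at 3 dpi and Hist2h3c2 at 7 dpi, where Hist2h3c1 and Hist2h3c2, with 507 and 436 UMIs in all, are named after their values were seen. Members at 0 UMIs in cycling cells were not called, since the floor lay above their non-cycling level. These were Hist2h2be in Uninjured (42 UMIs in non-cycling cells) and Hist2h3c1 and Hist2h3c2 at 1 dpi (41 and 34 UMIs). Hist4h4 at 1 dpi rested on 1 UMI in cycling cells, and its interval included 1.

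The linker histones differed in which state they were found. Hist1h1b (chr13:21779883-21780625, minus strand) was at 424, 183, 267 and 303 CPM in cycling and 0.515, 0.446, 2.07 and 11.8 CPM in non-cycling cells, with ratios of 825 (595 to 1174), 411 (236 to 782), 129 (102 to 165) and 25.7 (23.2 to 28.5). Hist1h1c (chr13:23738808-23740367, plus strand) was at 146, 46.2, 57.3 and 91.1 against 36.1, 24.7, 26.9 and 59.5 CPM, with ratios of 4.05, 1.87, 2.13 and 1.53. Hist1h1b thus made 41.9%, 38.4%, 45.9% and 44.8% of H1 UMIs in cycling cells and 0.730%, 1.09%, 4.29% and 11.5% in non-cycling cells. For Hist1h1c the shares were 14.4%, 9.68%, 9.85% and 13.5% in cycling and 51.3%, 60.7%, 55.7% and 57.9% in non-cycling cells. Hist1h1e was abundant in both states, at 347, 188, 205 and 214 against 33.3, 14.1, 17.7 and 27.5 CPM. Hist1h1a and Hist1h1d were scarce in non-cycling cells (0.206 to 2.28 CPM) and 15.7 to 215 times higher in cycling cells.

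Among H2A genes, Hist1h2ap (chr13:21833026-21833507, minus strand) was at 3732, 869, 773 and 388 CPM in cycling cells and 4.42, 2.99, 6.44 and 13.5 CPM in non-cycling cells, with ratios of 844 (756 to 946), 291 (234 to 366), 119.9 (105 to 137) and 28.7 (26.1 to 31.6). Cycling cells held 92.7%, 91.7%, 92.0% and 64.8% of its mesenchymal UMIs. The rest lay in non-cycling cells and in cells with 1 gate gene alone, which count in neither group. Non-cycling cells were 97.6%, 93.5%, 82.4% and 76.6% of mesenchymal cells, so cells with 1 gate gene alone were most frequent at 7 dpi. The part of the gate and of depth in the lower share at 7 dpi was not tested. With each cell thinned to 1000 UMIs, 41.7% (30.2 to 53.9), 36.5% (25.6 to 48.5), 36.9% (32.7 to 41.4) and 23.1% (20.1 to 26.4) of cycling mesenchymal cells had a Hist1h2ap UMI. Of non-cycling mesenchymal cells 0.392%, 0.298%, 0.870% and 2.40% had one, and of non-cycling Schwann cells, glia of nerve with a median of 2016 to 3867 UMIs, 1.27%, 1.15%, 1.41% and 2.19%. The intervals ran from 0.268 to 0.552, 0.143 to 0.547, 0.628 to 1.17 and 2.04 to 2.80% in non-cycling mesenchymal and from 0.262 to 3.65, 0.140 to 4.09, 0.171 to 5.00 and 0.599 to 5.50% in Schwann cells, and overlapped in each library. Before thinning, which left out up to 481 cells of a group, the mesenchymal shares were 56.9%, 66.2%, 69.2% and 51.0% in cycling and 3.23%, 2.11%, 3.74% and 5.33% in non-cycling cells.

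The make-up of H2A differed between libraries. Hist1h2ap was 78.3% (77.2 to 79.3), 72.6% (70.4 to 74.7), 66.3% (65.4 to 67.2) and 49.2% (47.7 to 50.6) of H2A UMIs in cycling mesenchymal cells, and Hist1h2ae, another H2A gene, 14.5%, 12.4%, 19.1% and 29.2%. In cycling NK and T cells the Hist1h2ap share had the same order, 70.3%, 58.8%, 50.7% and 36.8%, from 13, 20, 195 and 63 cells. The share moved with the library in both classes, and the part of the library in it was not tested. Hist1h2ab and Hist1h2an were 12.8 to 1203 times higher in cycling cells. The high ratios rested on few UMIs in non-cycling cells. Hist1h2an at 1 dpi had 36 UMIs in cycling and 1 in non-cycling cells, a ratio of 734 (124 to 29802). Hist2h2ac was 9.85 to 19.6 times and Hist2h2aa1 4.37 to 8.82 times higher. Hist1h2ac, which lies head to head with Hist1h2bc, was 17.1, 5.22, 4.18 and 2.49 times higher.

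Hist3h2a (chr11:58954685-58956830, plus strand), an H2A gene outside the large clusters, did not follow. It was at 8.35, 2.80, 6.46 and 13.0 CPM in cycling and 11.7, 9.92, 9.44 and 17.2 CPM in non-cycling cells. Its ratios were 0.713 (0.341 to 1.32), 0.282 (0.0764 to 0.731), 0.684 (0.515 to 0.896) and 0.753 (0.586 to 0.956), below 1 beyond counting error in the 3 libraries after injury. Hist3h2a overlaps Trim17 on the same strand, and the part of this overlap in its counts was not tested.

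H2B was dominated by Hist1h2bc (chr13:23684199-23692908, plus strand), which made 95.5%, 92.9%, 94.4% and 93.4% of H2B UMIs in non-cycling cells and 54.3%, 23.2%, 39.0% and 60.1% in cycling cells. It was at 155, 23.1, 48.0 and 123 CPM in cycling and 86.4, 64.1, 87.2 and 145 CPM in non-cycling cells. It was thus higher in cycling cells of Uninjured (ratio 1.79 (1.54 to 2.07)) and lower at 1, 3 and 7 dpi (0.360 (0.247 to 0.508), 0.551 (0.499 to 0.607) and 0.848 (0.784 to 0.917)). Hist1h2bj, Hist1h2bb and Hist2h2bb were at 0.119 to 1.44 CPM in non-cycling cells and 10.4 to 171 times higher in cycling cells. Hist1h2be was 4.42 to 7.82 times higher. The narrow gap of the H2B sum was that of its most abundant gene, and these other H2B genes had wider ones.

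Hist1h3c (chr13:23744973-23745602, minus strand) led H3, at 203, 64.4, 72.9 and 70.6 CPM in cycling against 0.145, 0.240, 1.23 and 5.14 CPM in non-cycling cells. Its ratios were 1399 (768 to 2839), 268 (125 to 685), 59.2 (43.6 to 82.2) and 13.7 (11.6 to 16.3). Hist1h3a, Hist1h3e, Hist1h3f and Hist1h3i were 8.16 to 293 times higher in cycling cells. Among H4 genes, Hist1h4d (chr13:23581598-23582735, plus strand) was at 140.3, 86.8, 68.3 and 108 against 12.6, 10.4, 8.60 and 14.7 CPM, with ratios of 11.2, 8.32, 7.94 and 7.34. Hist1h4i was at 26.7, 9.10, 25.3 and 26.6 against 0.686, 0.892, 3.64 and 9.87 CPM, with ratios of 39.0, 10.2, 6.95 and 2.70. Hist1h4h and Hist1h4c were 3.40 to 11.4 times higher.

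Hist4h4 (chr6:136801553-136804415, minus strand), an H4 gene away from the clusters, was at 8.35, 0.7001, 1.41 and 2.90 CPM in cycling cells, from 10, 1, 14 and 17 UMIs, and 3.26, 3.53, 3.56 and 1.27 CPM in non-cycling cells. Its ratios were 2.56 (1.21 to 4.79), 0.198 (0.00497 to 1.13), 0.397 (0.211 to 0.691) and 2.29 (1.24 to 4.04). The direction in Uninjured rested on the limits on UMIs and genes per cell, without which the ratio was 0.858.

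Ratios differed by the annotated end of the transcript, with wide overlap between the classes. Of those that stopped within 100 bases of the stem-loop, 10 of 10, 10 of 10, 12 of 12 and 18 of 18 were at least 2-fold higher in cycling mesenchymal cells, with ratios of 4.37 to 1399, 6.41 to 291, 4.95 to 119.9 and 2.89 to 28.7 and medians of 166, 60.8, 38.6 and 10.7. Of those that ran over 300 bases past it, 12 of 15, 10 of 15, 12 of 17 and 14 of 18 were. Their ratios ran from 0.555 to 215, 0 to 29.6, 0.122 to 27.7 and 0.442 to 15.7. The medians were 9.86, 5.22, 6.95 and 4.46, and 3, 4, 4 and 3 had ratios below 1. Of all genes, 14.1%, 11.4%, 8.2% and 5.07% were at least 2-fold higher. Members without a match held both low and high values. Hist1h2bc had 1.79, 0.360, 0.551 and 0.848 and Hist1h1b 825, 411, 129 and 25.7. Their annotated transcripts were 1156 and 743 bases long. A missing match does not show that the mRNA lacks a stem-loop, since the annotation may stop before it. These counts carry the minimum of 20 UMIs, which a member could reach through cycling cells alone. The classes rest on the annotation, not on where the reads ended.

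**Figure D2:**
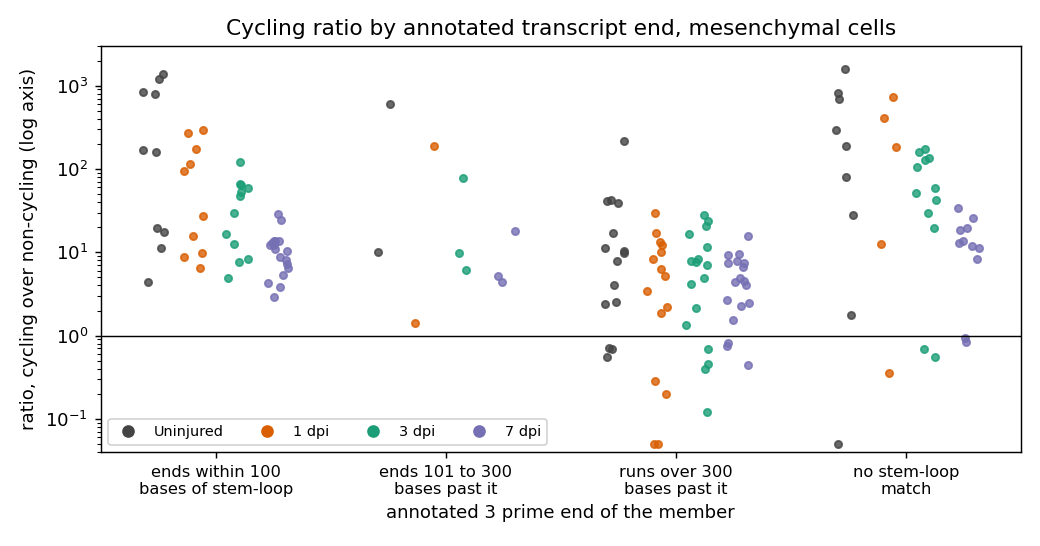
Ratio of CPM between cycling and non-cycling mesenchymal cells on a log axis, 1 point for each member with at least 20 UMIs, by where its annotated transcript ends. Every member that ends within 100 bases of the stem-loop lies above 2, members that run over 300 bases past it spread to both sides of 1, and ratios of 0 are drawn at 0.05.

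In all mesenchymal cells together, the summed level was 323 CPM in Uninjured, 241 at 1 dpi, 578 at 3 dpi and 601 at 7 dpi. At 1 dpi it was 0.748 (0.729 to 0.767) times that of Uninjured, with 4 of 41 members at least 2-fold higher (9.55% of all genes) and 1 lower (5.54%). Those higher were Hist1h1d (2.29), Hist1h2ab (2.02), Hist1h2bh (2.41) and Hist1h2bj (2.84), with their ratios, and that lower was Hist2h2aa1 (0.496). From 1 to 3 dpi the ratio was 2.39 (2.34 to 2.45), with 31 of 48 members higher (7.34% of all genes) and 0 lower (6.36%). Within cycling and within non-cycling cells, the summed levels given above rose less over this step. Cycling cells held 4.38% of mesenchymal UMIs at 1 dpi and 18.6% at 3 dpi. The part of this change in the mix of cells was not tested. From 3 to 7 dpi the ratio of summed levels was 1.04 (1.02 to 1.06), with 6 of 55 higher (11.5%) and 2 lower (7.8%). The members lower at 7 dpi were Hist1h2ai (0.461) and Hist1h2ap (0.418), and members of these short lists with under 1000 UMIs are named after their values were seen. That last step turned to 0.818 without the limits on UMIs and genes per cell, so its direction was not stable. Member shares were near those of all genes in the first and last steps and far above them from 1 to 3 dpi. The UMI minimum was read on both libraries of a step together. A member seen mostly at 3 dpi could therefore reach it through that library alone, and the 31 include members with few UMIs at 1 dpi.

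Between 1 and 3 dpi the largest ratios among members with at least 100 UMIs in the mesenchymal cells of these 2 libraries were those of Hist1h4i (8.81 against 1.29 CPM, 6.84-fold), Hist1h1b (54.4 against 8.56 CPM, 6.35-fold) and Hist1h2ae (46.0 against 7.30 CPM, 6.30-fold). The smallest were those of Hist4h4, at 0.830 (0.641 to 1.08), Hist2h4, at 0.895 (0.598 to 1.35), and Hist3h2a, at 0.924 (0.798 to 1.07). Within cycling cells, Hist1h4i was at 25.3 CPM at 3 dpi against 9.10 CPM at 1 dpi. In the same cells Hist1h1b was at 267 against 183 CPM and Hist1h2ae at 222 against 148 CPM. Within non-cycling cells, Hist1h4i was at 3.64 against 0.892 CPM, Hist1h1b at 2.07 against 0.446 CPM and Hist1h2ae at 2.86 against 0.789 CPM. Between 3 and 7 dpi Hist1h2ap was lower (65.2 against 156 CPM, ratio 0.418 (0.401 to 0.435)) and Hist1h1c higher (66.5 against 33.5 CPM, ratio 1.98 (1.87 to 2.10)). Within non-cycling cells at 7 dpi, Hist1h3c was 35.4 (19.4 to 72.0) and Hist1h1b 22.9 (16.5 to 32.6) times the Uninjured level, and Hist2h2aa1 0.206 (0.152 to 0.274) times. The median depth of these cells was also lower at 7 dpi, as given above, and its part was not tested.

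Cycling cells were then divided by whether they held more UMIs of 25 S phase genes or of 25 G2/M genes. In mesenchymal cells the S phase side was at 2564 CPM against 1837 CPM at 3 dpi, from 190 and 295 cells, a ratio of 1.40 (1.36 to 1.43). At 7 dpi it was at 2465 against 1788 CPM, from 183 and 504 cells, a ratio of 1.38 (1.33 to 1.43). In Uninjured it was at 5535 against 6594 CPM, from 16 and 55 cells, a ratio of 0.839 (0.793 to 0.888). At 1 dpi the S phase side (66 cells) was at 1726 CPM and the G2/M side at 5571 CPM, from only 7 cells, under the minimum of 10 for a comparison. The S phase side was thus higher at 3 and 7 dpi and lower in Uninjured, and at 1 dpi the G2/M side had too few cells to compare. At least 2-fold higher on the S phase side were 5 of 38 members at 3 dpi (2.79% of all genes), namely Hist1h1a, Hist1h1d, Hist1h3a, Hist1h4a and Hist1h2bn, and 3 of 38 at 7 dpi (2.33%), namely Hist1h2an, Hist1h4a and Hist1h2bn. Hist1h4a and Hist1h2bn are named for the small counts, after their values were seen. Hist1h1b was 1.78 (1.65 to 1.92) and 1.91 (1.74 to 2.11) times higher on that side at 3 and 7 dpi, and Hist1h2bc was at 0.673 (0.552 to 0.816) and 0.710 (0.593 to 0.847) times.

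A finer division, added after the data were seen, gave the highest level inside the scale where all steps could be read. Cells with at least 10 UMIs of both lists together were placed by the S phase share of those UMIs, whether or not they held Mki67 and Top2a. In mesenchymal cells at 3 dpi the summed level was 658, 1505, 1886, 2103 and 342 CPM in steps of 0.2 from 0 to 1. At 7 dpi it was 899, 1555, 1777, 1732 and 314 CPM. A step needed at least 20 cells. In Uninjured only the first and last steps had them, at 2901 and 213 CPM. At 1 dpi only those from 0.6 upward did, at 3395 and 188 CPM, so neither library could show the full course. In the last step 52 of 295 cells at 3 dpi and 19 of 251 at 7 dpi held both gate genes. Granulocyte progenitors at 1 dpi had 4791, 10092, 8981, 7948 and 2034 CPM along the same steps, and NK and T cells at 3 dpi 4965, 11072, 12121, 7906 and 1384 CPM.

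**Figure D3:**
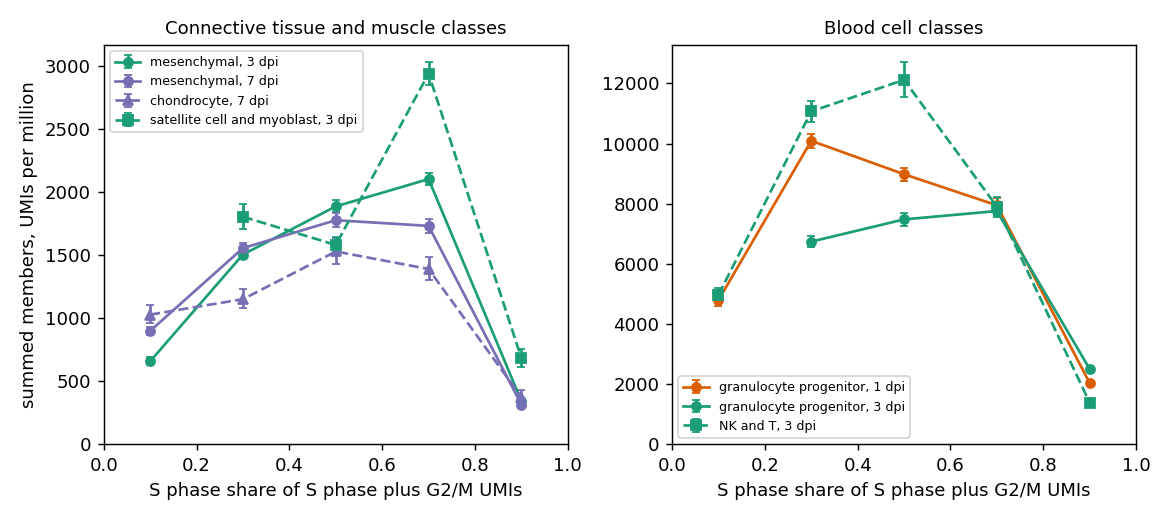
Summed histone level in CPM against the S phase share of S phase plus G2/M UMIs, in steps of 0.2 with at least 20 cells, by cell class and library, with 95% Poisson intervals. Mesenchymal cells at 3 and 7 dpi are lowest in the last step and highest in an inner one.

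Further gene lists were read with the same gate. Of 20 genes on a list for histone mRNA processing and histone chaperones, 19 had enough UMIs. In cycling mesenchymal cells 11, 12, 8 and 8 were at least 2-fold higher, where 14.1%, 11.4%, 8.2% and 5.07% of all genes were. The list also named Npat and Cdc7, which are neither processing nor chaperone genes. At 3 dpi the chaperone Asf1b was at 44.0 against 1.82 CPM, the chromatin assembly factor subunits Chaf1b and Chaf1a at 33.7 against 2.24 CPM and 48.3 against 5.63 CPM, and the histone acetyltransferase Hat1 at 78.5 against 15.3 CPM. Slbp, whose protein binds the stem-loop, was at 172, 243, 77.1 and 80.1 CPM in cycling and 54.9, 90.02, 59.1 and 41.3 CPM in non-cycling cells. Of 11 replacement histone genes, which lie outside the clusters and could all be read in each library, 8, 6, 5 and 4 were at least 2-fold higher, set against the same shares of all genes. At 3 dpi Cenpa, the centromeric H3, was at 187 against 9.61 CPM, H2afx at 128 against 17.99 CPM and H2afz at 1386 against 274 CPM, while H3f3a was at 616 against 555 CPM.

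Summed over cells and as a share of their own UMIs, cycling granulocyte progenitors and NK and T cells carried more histone mRNA than cycling mesenchymal cells of the same library. Granulocyte progenitors were at 6834 CPM at 1 dpi (170 cells) and 6555 CPM at 3 dpi (204 cells), 3.35 (3.23 to 3.48) and 3.06 (3.00 to 3.12) times the mesenchymal level. NK and T cells were at 7936 CPM at 3 dpi and 6868 CPM at 7 dpi, 3.70 (3.62 to 3.79) and 3.45 (3.31 to 3.60) times. In Uninjured and at 1 dpi only 13 and 20 NK and T cells cycled, at 10544 and 3907 CPM, beside 6665 and 2039 CPM in cycling mesenchymal cells. Medians per cycling cell were 6476, 626, 6702 and 6876 CPM in NK and T cells and 750.5, 892, 1073 and 1110.3 CPM in mesenchymal cells. At 1 dpi the median NK and T cell was thus the lower one. Cycling satellite cells and myoblasts, the muscle precursors, were at 2338 CPM at 3 dpi (150 cells), 1.09 (1.06 to 1.12) times. Per UMI of Mki67 or Top2a, granulocyte progenitors held 6.01 and 6.28 histone UMIs at 1 and 3 dpi, NK and T cells 7.21, 3.30, 3.41 and 3.94 in the 4 libraries, and satellite cells and myoblasts 3.04 at 3 dpi. At 1 dpi the NK and T value was thus below the mesenchymal 3.56, with overlapping intervals. At 3 and 7 dpi the NK and T values of 3.41 and 3.94 stood beside mesenchymal values of 3.08 and 2.39. The gate genes themselves were at 2326 and 1744 CPM in these NK and T cells. In granulocyte progenitors they were at 1138 and 1043 CPM at 1 and 3 dpi. In mesenchymal cells they were at 573, 695 and 830.4 CPM at 1, 3 and 7 dpi. The gate asks for 1 UMI each of Mki67 and Top2a whatever the depth of a cell. Depth was not matched in the ratios between classes here and below, and its part was not tested.

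Chondrocytes, the cartilage cells gated at 7 dpi only, had a narrower contrast between states. Their cycling level was 1410.3 CPM (299 cells) and their non-cycling level 440.1 CPM, a ratio of 3.20 (3.06 to 3.36). The cycling level was 0.709 (0.679 to 0.741) times that of cycling mesenchymal cells, and the non-cycling level 1.20 (1.17 to 1.23) times that of non-cycling ones. In cycling against non-cycling chondrocytes Hist1h1b was at 217 against 15.1 CPM, Hist1h2ap at 243 against 14.9 CPM, Hist1h1c at 126 against 89.7 CPM and Hist1h2bc at 158 against 173 CPM. Against cycling mesenchymal cells, Hist1h1c and Hist1h2bc were higher (1.38 (1.18 to 1.62) and 1.29 (1.12 to 1.49) times), and Hist1h2ab, Hist1h1a and Hist1h1e lower (0.371 (0.222 to 0.591), 0.465 (0.296 to 0.703) and 0.550 (0.472 to 0.637) times).

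Non-cycling cells differed between classes too. Non-cycling B cells were at 2738, 955, 1625 and 1562 CPM, from 199, 1252, 335 and 203 cells, 12.3, 5.94, 8.24 and 4.26 times non-cycling mesenchymal cells. Among classes with at least 10 non-cycling cells they were highest in every library except 1 dpi, where B cell progenitors were at 1609 CPM. In Uninjured, B cells against mesenchymal cells held Hist1h2bc at 718 against 86.4 CPM, Hist1h1c at 699 against 36.1 CPM and Hist1h4i at 90.4 against 0.686 CPM. Thinned to 1000 UMIs, 25.1% (19.3 to 31.7) of these B cells had a Hist1h2ap UMI, and 46.2% before thinning. Non-cycling means only that no UMI of Mki67 or Top2a was found. Dividing B cells without such a UMI were thus not set apart. Non-cycling neutrophils were at 457 and 468 CPM at 1 and 3 dpi, 0.0668 and 0.0714 times the cycling granulocyte progenitors. Of all gated neutrophils, 14 of 445 at 1 dpi and 15 of 301 at 3 dpi were cycling. Dividing cells without a gate UMI were not set apart in this class either.

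**Figure D4:**
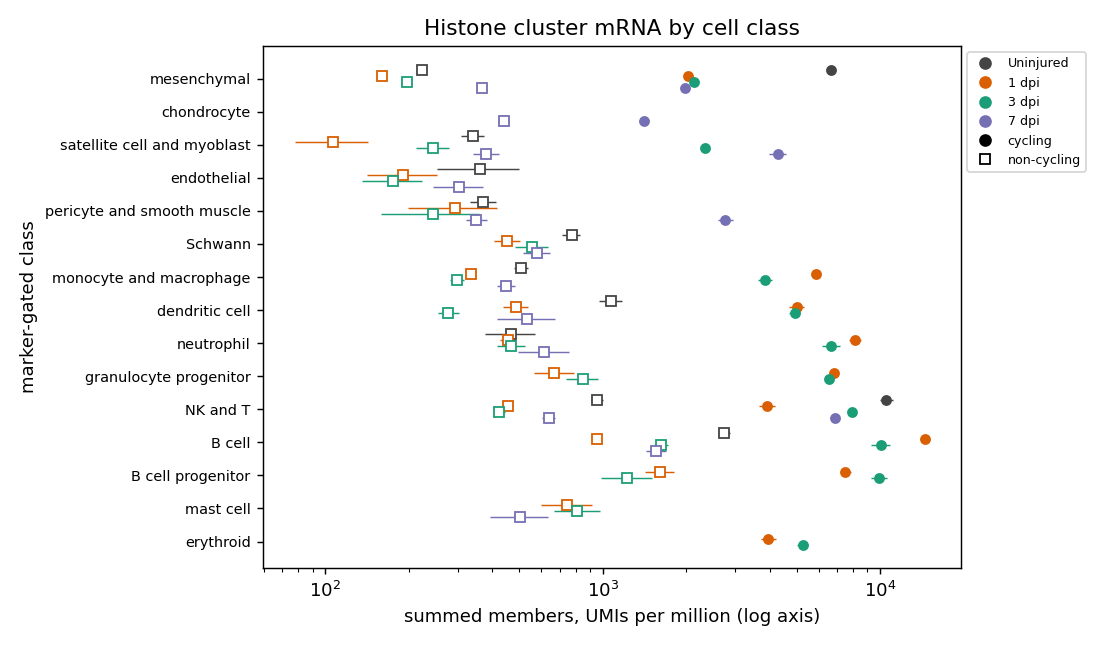
Summed histone level in CPM on a log axis in the marker-gated classes, for cycling (filled circles) and non-cycling (open squares) cells of each library with at least 10 cells, with 95% Poisson intervals. Cycling cells lie above non-cycling cells wherever both are drawn.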

How the data were processed

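Single-cell gene expression libraries were made from uninjured tibial muscle and at 1, 3 and 7 dpi, 1 library of 3 pooled muscles each. Per the labels, the authors used Cell Ranger 5.0.0 with STAR, and they deposited UMI counts per gene and cell. The submitters' processing notes also name mm10 and Seurat 3.1.1. Down-sampling of reads was named for aggregation, and whether the deposited counts carry it was not stated. Depth was 112317902, 91146335, 116346301 and 129007669 UMIs.

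Cells within 2 SD of their library's mean log10 UMIs and log10 genes and with at most 10% mitochondrial UMIs were kept. The 7.5% of barcodes with the highest Scrublet scores (scanpy 1.11.5) were removed as likely doublets, in place of DoubletFinder. A class needed at least 2 of its markers and more than any other class, progenitors took precedence over their mature class, and non-immune classes held no Ptprc UMI. Counts were summed over the cells of a class and divided by all UMIs of those cells. Intervals are 95% exact Poisson for levels, Clopper-Pearson for shares and conditional binomial for ratios. A ratio against 0 UMIs used a floor of 3 UMIs. The code was tested on simulated data, and no p-value was computed. Positions came from GENCODE M21, matched by gene identifier. Members with at least 1000 UMIs were named, others with at least 100 UMIs only among the 3 largest ratios in a direction, or where a count was small. The members, lists and markers were chosen with earlier results of these data known. Alternatives changed the gate, cell limits, doublet removal, depth, denominator, UMI minimum, marker minimum and fold limit. Python 3.11.15, numpy 2.4.6 and scipy 1.17.1 were used.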

Additional observations from a re-analysis of the deposited data

Results flagged for a closer look

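The direction of 3 results differed between libraries, and the differences themselves were not tested. The summed histone level on the S phase side of cycling mesenchymal cells was 1.40 (1.36 to 1.43) times that on the G2/M side at 3 dpi and 1.38 (1.33 to 1.43) times at 7 dpi, but 0.839 (0.793 to 0.888) times in Uninjured, where 16 cells leaned to S phase. At 1 dpi it was 1726 against 5571 CPM, with 7 cells on the G2/M side, too few to compare. Hist1h2bc was higher in cycling than in non-cycling mesenchymal cells of Uninjured, at 1.79 (1.54 to 2.07) times, and lower at 1 dpi, at 0.360 (0.247 to 0.508), at 3 dpi, at 0.551 (0.499 to 0.607), and at 7 dpi, at 0.848 (0.784 to 0.917) times. Hist4h4 was higher in cycling cells of Uninjured, at 2.56 (1.21 to 4.79), and of 7 dpi, at 2.29 (1.24 to 4.04), and lower at 3 dpi, at 0.397 (0.211 to 0.691) times, from at most 17 UMIs in the cycling cells of a library.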

How the results depend on the processing

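The ratio of summed histone levels between cycling and non-cycling mesenchymal cells stayed above 1 in every library under each alternative run. In Uninjured, 1, 3 and 7 dpi it was 13.9, 5.74, 6.84 and 3.41 with either Mki67 or Top2a as the gate, 20.003, 14.0, 12.2 and 5.45 without the limits on UMIs and genes per cell, 27.4, 13.0, 10.4 and 5.30 without doublet removal, 27.0, 11.4, 8.94 and 3.59 with cells thinned to 1000 UMIs, 27.8, 11.9, 10.4 and 5.26 without the 50 most abundant genes in the denominator, and 31.1, 17.2, 10.2 and 5.24 with the gate read on cells thinned to 3000 UMIs, the last chosen after seeing the data. The steps from Uninjured to 1, 1 to 3 and 3 to 7 dpi were 0.621, 2.66 and 0.818 without the limits, so the last reversed, 0.804, 2.34 and 1.01 without doublet removal, 0.735, 1.87 and 1.64 when thinned and 0.753, 2.35 and 1.08 without the 50 genes. The ratio of the S phase to the G2/M side in Uninjured, 3 and 7 dpi was 0.958, 1.45 and 1.17 without the limits, 0.722, 1.46 and 1.37 without doublet removal and 0.770, 1.52 and 1.32 when thinned. Members at least 2-fold higher numbered 53, 46, 54 and 54 with a minimum of 1 UMI and 17, 7, 21 and 21 with 100, the counts following how many members could be read. No share over all genes is given at these minima, so the counts cannot be set against a background. With the minimum of 1 UMI, 1 UMI in cycling cells could be enough for a call, as at 1 dpi. Hist4h4 in Uninjured reversed to 0.858 without the limits. Beyond these constructions, the cause of each shift was not tested. No paired analysis was possible because each time point has 1 library. Depth limits the scarce members most, since those under 20 UMIs in a comparison could not be read.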
